A study of Mus musculus with 8 samples.

Results

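Acetylation of histone H3 at lysine 27 (H3K27ac), a mark of active promoters and enhancers, was described at 9 genes of the basement membrane: the collagen IV genes Col4a1, Col4a2, Col4a3 and Col4a4, and the laminin genes Lama3, Lama5, Lamb1, Lamb2 and Lamc1. They are 9 of the 21883 mouse protein-coding genes placed on the assembly. They were chosen by name, and each was described over its RefSeq span on mm10 with 70 kb either side. The bases covered by called H3K27ac peaks and the height of those peaks with dDAVP against vehicle chose the set, so those values are given as a description, with no test.

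The cells were mpkCCD clone 11, 1 cloned mouse line of the cortical collecting duct, whose principal cells respond to vasopressin. They were grown to confluence on permeable supports and kept in medium free of serum and hormones for 24 h. Then 0.1 nM dDAVP, an analogue of vasopressin selective for the V2 receptor, or its vehicle was given for 24 h, in 2 experiments. Chromatin immunoprecipitation with an antibody to H3K27ac and sequencing gave 1 dDAVP and 1 vehicle library per experiment, each with an input library of unselected chromatin, so 4 immunoprecipitated and 4 input libraries. Values are printed below in the order dDAVP then vehicle of experiment 1, and dDAVP then vehicle of experiment 2. An exact test within 2 pairs cannot give a two-sided p below 0.5.

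The immunoprecipitated libraries held 27923780 to 32705755 kept tags. The lists differed far more in extent than in depth: they covered 99.0, 104.1, 33.5 and 56.9 Mb of the genome with 37235, 39745, 20124 and 29597 peaks. The dDAVP list of experiment 2 stood apart as the shortest, and each ratio is therefore given for each experiment on its own, experiment 1 being free of that list. Of 9 listed markers of the principal cell, 7 had a peak at the gene start in every list, against 45.9% of all genes. They were Aqp2, Aqp3, Avpr2, Scnn1a, Scnn1g, Gata3 and Hsd11b2, while Aqp4 and Elf5 had not. A peak at the start in every list was also found for 1 of 7 podocyte markers (Podxl) and 1 of 6 proximal tubule markers (Lrp2). It was found for 0 of 7 fibroblast and mesangial markers and 0 of 6 endothelial markers.

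Basement membranes are thin sheets of matrix under epithelia, built on 2 networks. Collagen IV molecules are triple helices of 3 chains: the alpha1 and alpha2 chains (Col4a1, Col4a2) form the network found in nearly all basement membranes, while the alpha3 and alpha4 chains (Col4a3, Col4a4) join alpha5 in the mature glomerular membrane and in some tubules. Laminins are cross-shaped trimers of 1 alpha, 1 beta and 1 gamma chain, bound by integrins and dystroglycan at the base of the cell. Lama5 encodes the alpha chain typical of adult kidney epithelium, Lamb1 and Lamb2 the alternative beta chains, Lamc1 the common gamma chain, and Lama3 the alpha chain of the laminin of epithelial anchoring complexes. The 9 genes lie at 7 separate loci, because Col4a1 and Col4a2, and likewise Col4a3 and Col4a4, stand head to head and are transcribed away from each other. Genes of such a pair share peaks and are not independent of each other.

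The annotated starts of Col4a1 and Col4a2 lie 21 bp apart, so that a single acetylated region serves both, and the short stretch between them is shown for that reason. The parts of the 250 bases before the start that lie outside the annotated gene are shown for the laminin genes Lama5, Lamb1 and Lamb2, whose start regions range from the widest to the narrowest of the set. Sequences are from RefSeq (GRCm38.p6, the assembly behind mm10), which had a promoter entry for 6 of the 9 genes, and are written 5′ to 3′ on the strand given. Capitals mark GC boxes (GGGCGG) and CCAAT boxes (CCAAT), read on both strands.
Col4a2/Col4a1 (chr8:11312805-11312826, plus strand): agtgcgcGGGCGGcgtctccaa
Lama5 (chr2:180225905-180226109, minus strand): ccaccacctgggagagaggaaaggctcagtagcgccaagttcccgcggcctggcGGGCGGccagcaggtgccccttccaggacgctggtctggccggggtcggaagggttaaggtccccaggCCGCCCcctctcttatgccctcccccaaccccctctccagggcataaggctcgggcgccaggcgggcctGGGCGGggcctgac
Lamb1 (chr12:31265043-31265145, plus strand): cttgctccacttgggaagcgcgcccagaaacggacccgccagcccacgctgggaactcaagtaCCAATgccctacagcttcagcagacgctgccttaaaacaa
Lamb2 (chr9:108479612-108479846, plus strand): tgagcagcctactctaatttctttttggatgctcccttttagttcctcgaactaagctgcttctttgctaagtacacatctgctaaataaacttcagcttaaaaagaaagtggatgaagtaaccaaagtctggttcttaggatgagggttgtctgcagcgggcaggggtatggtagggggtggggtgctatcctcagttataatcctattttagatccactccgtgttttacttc

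Among the 6 promoters, 5 were richer in G and C than most. Over the full 250 bases, G and C made up 74.4% at Col4a1, 73.6% at Col4a2, 72.4% at Lama5, 62.8% at Col4a4 and 62% at Lamb1, against 43.6% at Lamb2 and a median of 52.4% over 32851 promoters. CpG dinucleotides numbered 31 at Col4a1, 26 at Col4a2, 19 at Lama5, 14 at Lamb1, 10 at Col4a4 and 3 at Lamb2, with a median of 6. GC boxes, which 32.7% of all promoters held, were found 4 times at Lama5, 2 times each at Col4a2 and Lamb1, and not at Col4a1, Col4a4 or Lamb2. CCAAT boxes (33.8% of all promoters) were found once each at Col4a1, Col4a2 and Lamb1. The core of the cyclic AMP response element (TGACGT, 6.47% of all promoters), the element read by the factor CREB, was found once, in the Lama5 promoter at position -49 relative to the start, across the edge of the annotated gene. None of the 6 held the full element (TGACGTCA, 1.55%), a TATA box (TATAAA, 12.4%) or an AP-1 site (TGANTCA, 6.75%). A match is a match of letters in this window and says nothing of a factor.

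With dDAVP less sequence was covered by H3K27ac peaks around 8 of the 9 genes in both experiments, and around none was more covered in both. Among the 16120 genes whose windows held peaks in all 4 lists, 55.3% were less covered in both experiments and 1.2% more covered, so a lower covered length was the common case in these lists. The median ratio of dDAVP to vehicle was 0.876 in experiment 1 and 0.451 in experiment 2 over the 9 genes, against 0.979 and 0.656 over all genes. Lamb2 was the exception, with ratios of 1.05 and 0.953. Both dDAVP lists lay below both vehicle lists for 2 genes, Col4a1 and Lama3, against 5.14% of all genes. In such bulk chromatin, fewer cells that carry the mark and less of it per cell cannot be told apart. Over the gene itself with 2 kb either side, 7 of the 9 genes were less covered in both experiments (48.8% of 11344 genes). Lamb2 alone was more covered in both (3.85% of genes). The Lamb2 stretch also takes in the region at the start of Usp19. In experiment 2 the start region of Lamb2 was slightly shorter with dDAVP. Over the gene with 2 kb either side, both dDAVP lists lay below both vehicle lists for 3 genes, Col4a1, Col4a2 and Lama3 (5.35% of genes). These counts depend on the extent of the lists. When the weakest peaks were removed until each list covered 33.5 Mb, 5 of the 9 windows still held peaks in every list and 2 of those 5 were less covered in both experiments, against 32.4% of the 12517 genes with peaks in every list.

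**Figure D1:**
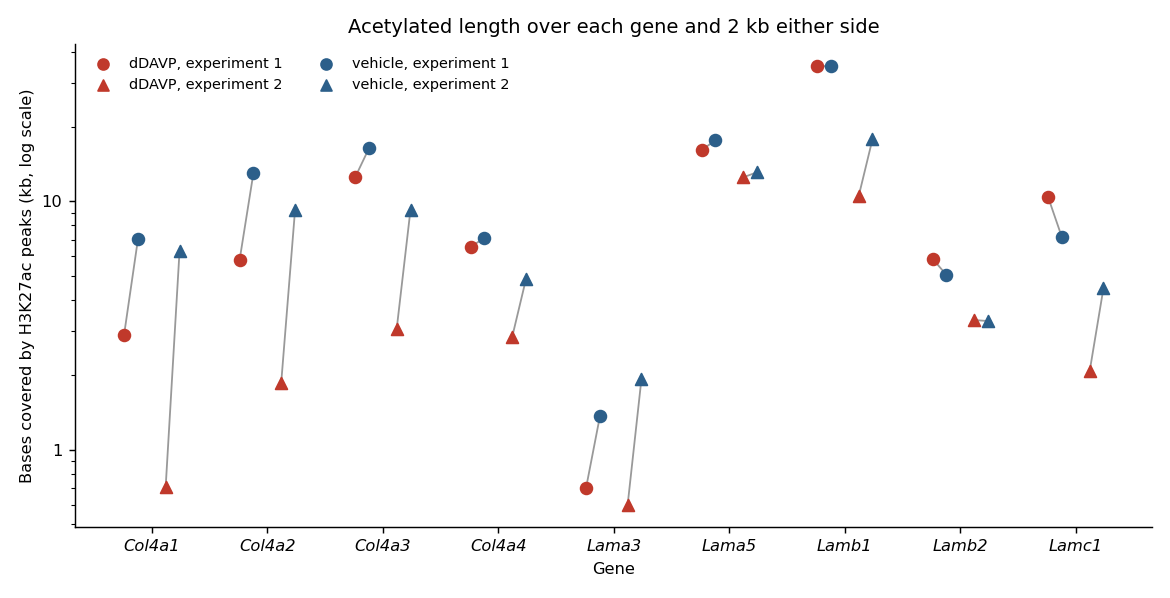
Bases covered by H3K27ac peaks over each gene with 2 kb either side, in kb on a log axis, 1 point per library (circles experiment 1, triangles experiment 2; red dDAVP, blue vehicle; lines join the libraries of an experiment). At Col4a1 the dDAVP points sit at 2902 and 707 bases under vehicle points of 7029 and 6280, while at Lamb2 the points of an experiment lie close together.

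Peak height was measured as pileup, the mean tag coverage of a peak, per 1000000 tags of the library to which the list had been scaled, here called normalised pileup. Over the windows of 70 kb either side, mean normalised pileup was lower with dDAVP in both experiments for 8 of 9 genes, against 38.5% of all genes, and higher in both for 0 (12.5% of all genes). The count was 3 of the 6 genes with peaks in every list at a -log10 q of at least 5 (34.9% of all such genes), and 2 of 5 with lists of equal covered length (50.6%). Lamc1 was the exception, with 0.625 against 0.700 in experiment 1 and 0.687 against 0.672 in experiment 2. The median pileup ratio was 0.917 and 0.851 over the 9 genes and 1.01 and 0.899 over all genes. Both dDAVP values lay below both vehicle values for 4 genes (Col4a1, Lama3, Lama5 and Lamb1), against 17.8% of all genes. Over the genes with 2 kb either side, pileup was lower in both experiments for 9 of 9 genes, against 42.6% of 11344 genes. Lamc1 was nearly equal in experiment 2, with 0.6068 against 0.6074 (ratio 0.999).

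The Col4a1 and Col4a2 pair, which encodes the ubiquitous collagen IV network, had the lowest covered length ratios of the 9 genes over the gene span in both experiments. Col4a1 (chr8:11198423-11312889) was covered over 2902, 7029, 707 and 6280 bases with its 2 kb flanks, which is 2.45%, 5.93%, 0.597% and 5.30% of that stretch. Both dDAVP libraries were lower than both vehicle libraries, and the ratios of 0.413 and 0.113 lay at percentiles 0.564 and 0.511 of all genes covered in every list. Col4a2 (chr8:11312805-11449287) was covered over 5796, 12998, 1847 and 9189 bases. Here too the groups did not overlap, with ratios of 0.446 and 0.201 at percentiles 0.811 and 1.95. In experiment 1 the 2 kb flank of Col4a2 also takes in the edge of the wide region over Rab20. Over the 70 kb windows the covered length was 19436, 29679, 10070 and 28140 bases for Col4a1 and 40927, 54721, 20126 and 34591 for Col4a2. The ratios were nearer to 1, at 0.655 and 0.358 for Col4a1 and 0.748 and 0.582 for Col4a2, in windows that also take in neighbouring genes.

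Peaks over the pair were few. The region at the shared start (chr8:11311489-11314638, 3150 bp) covers the first bases of both genes shown above. It was called in all 4 lists over 1459, 2805, 707 and 3032 bases, and its normalised pileup was 0.520, 0.598, 0.379 and 0.568. The dDAVP libraries were lower than the vehicle libraries in both measures, with pileup ratios of 0.870 and 0.667. By the authors' fold enrichment, the peak stood at percentiles 54.6, 64.2, 7.25 and 56.3 of its own list, so it was a middling peak in 3 lists and a weak one in the dDAVP list of experiment 2. A second region in Col4a2, 12379 bp from the start (chr8:11325205-11329040), was covered over 1987, 3802, 1140 and 2480 bases, with a normalised pileup of 0.549, 0.636, 0.428 and 0.576. These were the only 2 regions within the pair called in every list.

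The remaining calls within the pair came mostly from the vehicle lists. A region in Col4a1 (chr8:11258235-11261571) was covered over 1443, 2631, 0 and 3248 bases, and one in Col4a2 (chr8:11392219-11394173) over 1471, 1866, 0 and 1955 bases. Both were uncalled in the dDAVP list of experiment 2 alone. Called in both vehicle lists and neither dDAVP list were 2 regions of Col4a2: chr8:11340054-11341652, with 1293 and 699 bases at a normalised pileup of 0.447 and 0.322, and chr8:11346430-11346898, with 469 and 265 bases at 0.423 and 0.338. All 4 of these peaks were lower than the peak at the shared start in the same library. Another 5 regions were called in 1 vehicle list only, and no region within the pair was called in a dDAVP list without a vehicle list.

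**Figure D2:**
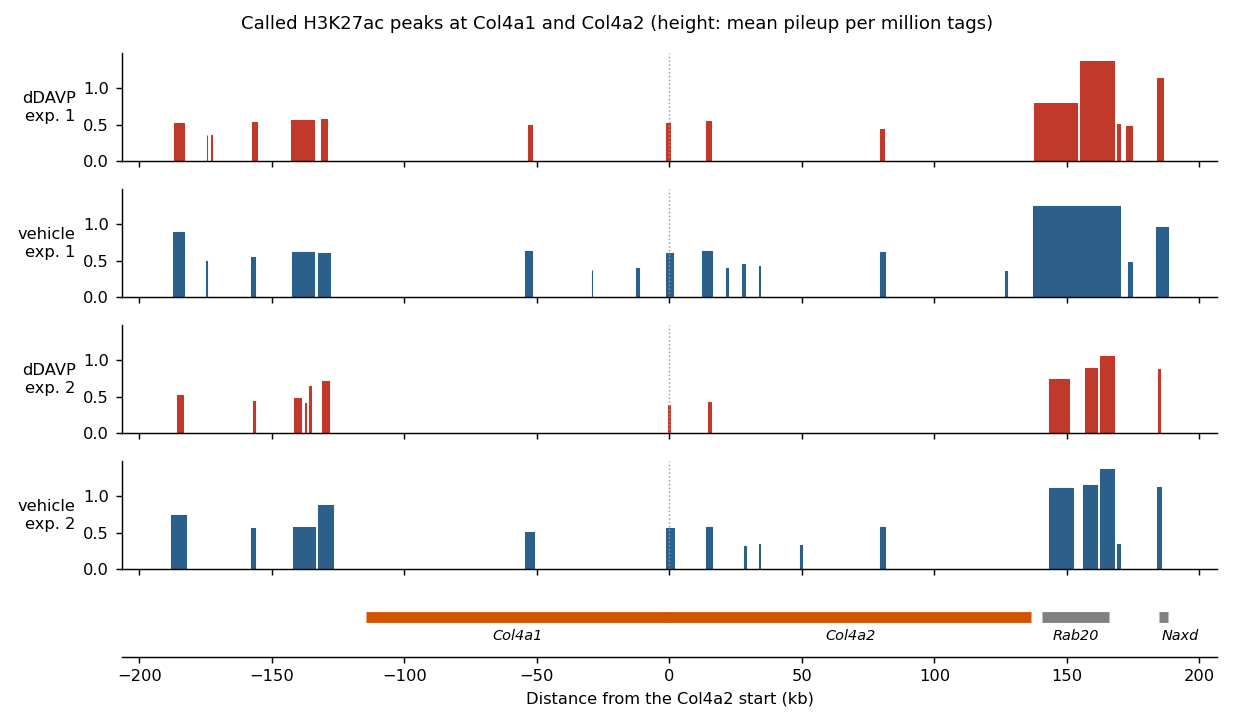
Called peaks around Col4a1 and Col4a2 in the 4 lists, by distance from the Col4a2 start in kb; bar width is the called extent and bar height the mean pileup per 1000000 tags, with the genes drawn at the bottom. Between the gene ends the vehicle rows hold more peaks than the dDAVP rows, while the broad block over Rab20 is present in every row.

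The wide regions around the pair were called in every list. The widest region of the Col4a1 window, intergenic (chr8:11169860-11179036), was covered over 9001, 8390, 4144 and 8432 bases, so that in experiment 1 it was slightly longer with dDAVP. Its neighbour at chr8:11180026-11185947 was shorter with dDAVP, with 2064, 4885, 2644 and 5861 bases. The widest region of the Col4a2 window, over Rab20 (chr8:11449979-11483023, 33045 bp), was covered over 29980, 32981, 17173 and 20923 bases at a normalised pileup of 1.03, 1.24, 0.868 and 1.13. That region holds more covered bases in each list than Col4a1 and Col4a2 together.

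The lists' extent bears on the pair directly. With the 20124 strongest peaks of each list, Col4a1 was covered over 1459, 5436, 707 and 6280 bases and Col4a2 over 4325, 9782, 1847 and 7467 bases, still lower with dDAVP in both experiments. With lists of equal covered length, Col4a1 kept 0, 0, 707 and 0 bases and Col4a2 kept 0, 1309, 1847 and 0 bases, so that the direction turned in experiment 2. The 1309 bases are the edge of the region over Rab20 within the 2 kb flank. That cut kept 7068, 6917, 20124 and 11642 peaks, and the middling peaks of this locus were outside the kept part of the other 3 lists.

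**Figure D3:**
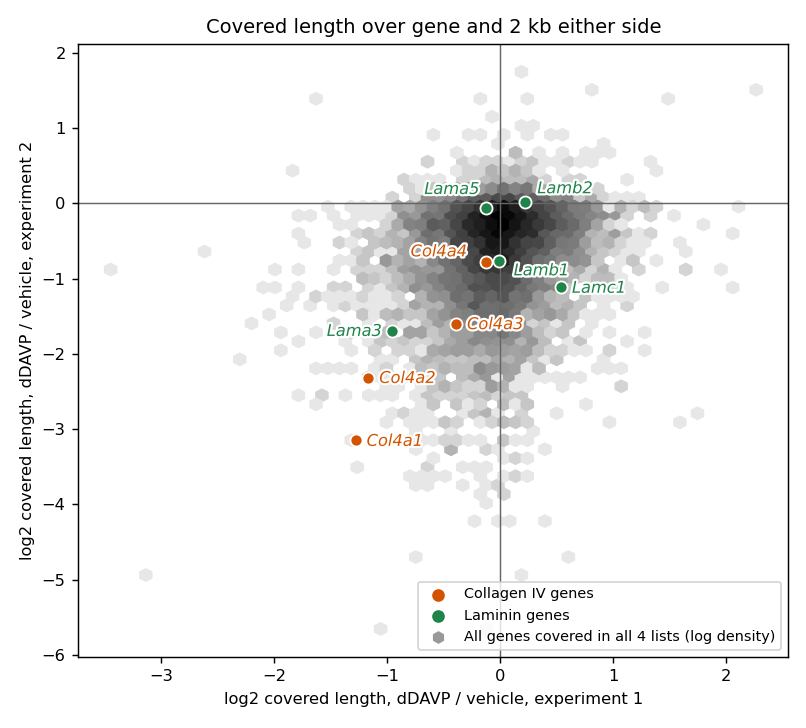
Ratio of covered length with dDAVP to vehicle over each gene with 2 kb either side, on a log2 scale, experiment 1 across and experiment 2 up; grey hexagons hold all 11344 genes covered in all 4 lists and coloured points the 9 genes. Col4a1 and Col4a2 lie at the lower left, at percentiles of 0.511 to 1.95, and Lamb2 lies above 0 on both axes.

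Col4a3 and Col4a4, whose chains belong to the mature glomerular network, had a stronger start region than the first pair. The gene end of Col4a3 (chr1:82586921-82722059) and the start of Col4a4 (chr1:82448419-82587034) lie 72 bp apart, and the promoter table had no entry for Col4a3. The region there (chr1:82584735-82588379) was covered over 3008, 3098, 1062 and 2582 bases, with a normalised pileup of 0.927, 0.996, 0.574 and 0.900. Libraries of the same experiment were close in experiment 1 (pileup ratio 0.931) and apart in experiment 2 (0.638), and the groups overlapped. Its fold enrichment stood at percentiles 81.2, 85.0, 41.2 and 82.7 of the lists.

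Col4a3 was covered over 12476, 16333, 3054 and 9257 bases with its 2 kb flanks, ratios of 0.764 and 0.330. Its widest region (chr1:82601240-82607883, inside the gene) was covered over 6231, 6644, 1623 and 4627 bases at a normalised pileup of 0.714, 0.848, 0.452 and 0.567. In experiment 1 that region was nearly as long with dDAVP as with vehicle, and the gap opened in experiment 2. A vehicle-only region inside Col4a3 (chr1:82633504-82635363) held 1860 and 429 bases at a normalised pileup of 0.427 and 0.621. Col4a4 differed less between treatments over its own span, covered over 6551, 7123, 2838 and 4864 bases, ratios of 0.920 and 0.583. A region deep in Col4a4 (chr1:82524246-82525452), chosen after its values were seen, held 1062, 1115, 803 and 264 bases, slightly less with dDAVP in experiment 1 and more in experiment 2. Over the 70 kb windows the ratios were 0.876 and 0.451 for Col4a3 and 0.871 and 0.356 for Col4a4. With lists of equal covered length the Col4a3 window held 1323, 4666, 5964 and 4375 bases and the Col4a4 window 0, 3098, 4830 and 3011, so that the direction turned in experiment 2 here as well.

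Of the 2 laminin alpha chains in the set, Lama5 had the broader acetylation and Lama3 the narrower. Lama5 (chr2:180176373-180225904) starts inside a region of 25611 bp (chr2:180213535-180239145), the widest start region of the set, which takes in the GC-rich stretch shown above. It was covered over 25611, 25243, 20066 and 23431 bases, so that its extent barely differed in experiment 1. Its normalised pileup was 0.914, 1.02, 0.719 and 0.991, ratios of 0.894 and 0.726, and here both dDAVP libraries lay below both vehicle libraries. Over the gene with 2 kb either side the covered length was 16099, 17587, 12491 and 13090 bases, ratios of 0.915 and 0.954. Away from the start, the region over Rbbp8nl in the Lama5 window (chr2:180288048-180293260) was covered over 2976, 4944, 568 and 2021 bases, although its pileup was slightly higher with dDAVP (ratios 1.08 and 1.03). The 70 kb window held 52758, 59110, 30310 and 38148 covered bases, ratios of 0.893 and 0.795, and with lists of equal covered length 2494, 29535, 30310 and 34905 bases, a wider gap in experiment 1.

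Lama3 (chr18:12333417-12583013) had no peak within 1 kb of either gene end in any list. A single region inside the gene, 78028 bp from the nearer end (chr18:12503053-12504985), was called in all 4 lists over 701, 1362, 599 and 1933 bases, or 0.236% to 0.762% of the gene with its flanks. Its normalised pileup was 0.390, 0.460, 0.388 and 0.460, lower in both dDAVP libraries than in both vehicle libraries. The fold enrichment of that peak stood at percentiles 20.0, 44.0, 6.63 and 40.9, so it was in the lower part of each list. The whole 70 kb window held 2062, 3557, 599 and 3727 covered bases, ratios of 0.580 and 0.161. The widest region of that window lies over Ankrd29 (chr18:12273692-12275746) and was covered over 1106, 1417, 0 and 1794 bases. Ratios at Lama3 thus rest on 1 to 3 small regions, and with lists of equal covered length the window kept 0, 0, 599 and 0 bases.

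Lamb1 (chr12:31265146-31329644), the beta chain of laminins made early in development, was the most widely acetylated gene of the set in experiment 1, with 51.0% and 51.2% of the gene and its flanks covered, against 15.3% and 26.0% in experiment 2. In bases the values were 34921, 35105, 10469 and 17793. The treatments were almost equal in experiment 1 (ratio 0.995) and apart in experiment 2 (0.588). The start region (chr12:31259337-31275684, 16348 bp) behaved likewise in length, with 15238, 15511, 5948 and 9250 bases. Its normalised pileup was 1.01, 1.205, 0.985 and 1.60, ratios of 0.841 and 0.616, and both dDAVP libraries lay below both vehicle libraries.

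Another 2 regions inside Lamb1 were in every list: chr12:31290579-31298473, with 7895, 6321, 1431 and 1955 bases, and chr12:31299362-31312203, with 10898, 12842, 3426 and 6314 bases. The first was longer with dDAVP in experiment 1 and shorter in experiment 2, and the second was shorter in both. Upstream, 6231 bp from the start, the region at chr12:31252023-31259062 was covered over 4024, 7040, 1064 and 2622 bases, while its normalised pileup of 0.965, 0.820, 0.583 and 0.614 was higher with dDAVP in experiment 1. A short intergenic vehicle-only region in the window (chr12:31228831-31229239) held 291 and 332 bases. Over the 70 kb window the covered length was 53380, 56784, 15568 and 27262 bases. With lists of equal covered length the Lamb1 window held 17814, 17394, 15568 and 14703 bases, slightly more with dDAVP in both experiments.

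Lamb2 (chr9:108479847-108490530), the beta chain of mature laminins and the one promoter of low GC content, had the mean log2 ratio nearest to 0 of the 9 genes over the 70 kb window. It was covered over 5874, 5054, 3326 and 3294 bases with its flanks, ratios of 1.16 and 1.01. That stretch takes in most of the region at the start of Usp19 (chr9:108489072-108492898), covered over 3766, 3385, 1529 and 1474 bases. The Lamb2 start region (chr9:108478607-108481040) was covered over 2415, 2037, 1797 and 1820 bases. Its normalised pileup was 0.956, 1.07, 0.696 and 0.718, pileup ratios of 0.897 and 0.970. The larger gap there lies between the experiments, not between the treatments. In experiment 2 the Lamb2 start region was slightly shorter with dDAVP, so the longer covered stretch came from the Usp19 region. Lamb2 sits among other acetylated starts, and its window held 14826, 14161, 8400 and 8817 covered bases. Its widest region, at the start of Impdh2 (chr9:108559296-108564641), was covered over 5346, 1115, 964 and 1045 bases, longest in the dDAVP list of experiment 1. That region reaches past the edge of the window.

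Lamc1 (chr1:153218922-153332786), the gamma chain shared by most laminins, went opposite ways in the experiments. It was covered over 10417, 7168, 2064 and 4475 bases with its flanks, ratios of 1.45 and 0.461. Inside the gene, regions of 930, 615 and 2022 bp were called in the dDAVP list of experiment 1 and in no other list, at a normalised pileup of 0.369, 0.387 and 0.392. The start region (chr1:153331017-153334163) was steadier, covered over 3103, 2940, 2064 and 2519 bases at a normalised pileup of 0.894, 1.01, 0.607 and 0.737. Its pileup ratios were 0.883 and 0.823, and the groups overlapped. In the window, the widest region (chr1:153190879-153197596) was intergenic and was covered over 3230, 6667, 1611 and 4456 bases. Its normalised pileup, 0.646, 0.656, 0.922 and 0.723, was higher with dDAVP in experiment 2. The 70 kb window held 24971, 28503, 5935 and 16372 covered bases, ratios of 0.876 and 0.363, and with lists of equal covered length 0, 0, 5935 and 7709 bases. That window also takes in peaks over a neighbouring gene. Its ratio below 1 in experiment 1 is thus one of the window, against 1.45 over the gene with its flanks.

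At the gene starts, 8 of the 9 genes had a peak within 1 kb in all 4 lists, against 45.9% of all genes, and Lama3 had none in any list, as had 45.2% of all genes. These 8 starts are 6 regions. Their calls depend on the limits set: with a -log10 q of at least 5 there were 4 starts in every list, and with lists of equal covered length 2. The share of all genes under those limits was not computed. Pileup was lower with dDAVP in both experiments at 6 of 6, against 46.3% of the 7500 start regions called in every list, and both dDAVP values lay below both vehicle values at 3 of them (19.3% of start regions): Col4a1/Col4a2, Lama5 and Lamb1. Ordered by their highest normalised pileup, Lamb1 (1.60) came first, then Lamb2 (1.07), Lama5 (1.02), Lamc1 (1.01), Col4a3/Col4a4 (0.996) and Col4a1/Col4a2 (0.598). The middle 4 do not differ beyond the spread between their own libraries.

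**Figure D4:**
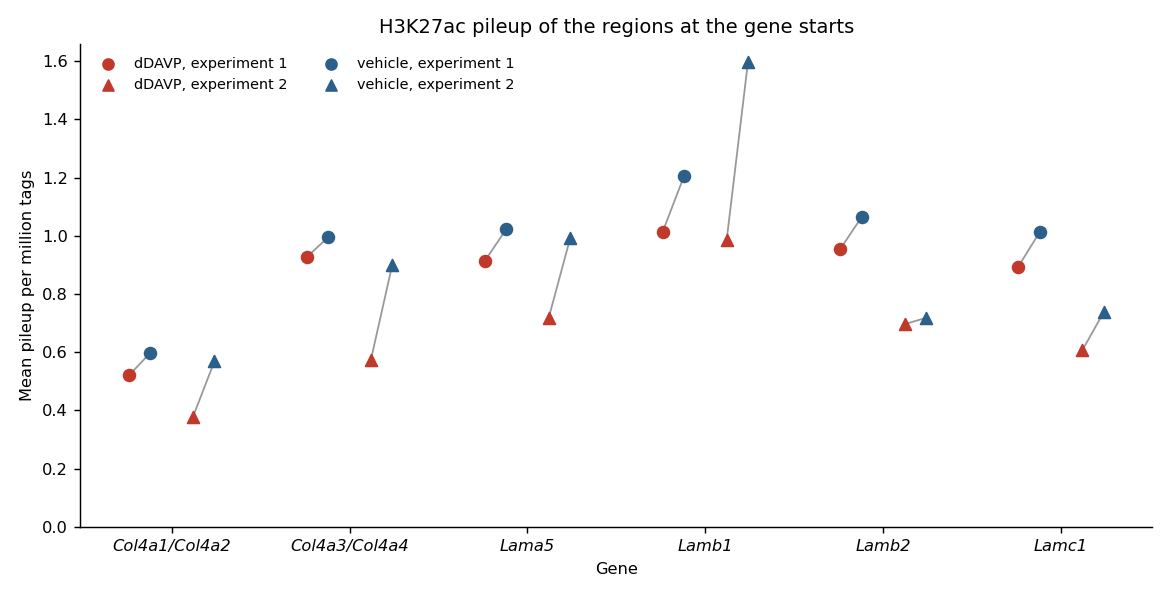
Mean pileup per 1000000 tags (normalised pileup) of the regions at the gene starts, 1 point per library (circles experiment 1, triangles experiment 2; red dDAVP, blue vehicle; lines join the libraries of an experiment). In each of the 6 regions the dDAVP point lies under the vehicle point of its experiment, by least at Lamb2 in experiment 2 (0.696 and 0.718) and by most at Lamb1 in experiment 2 (0.985 and 1.60).

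The windows of the 9 genes held 89 merged regions, of which 70, 75, 39 and 55 were called in the 4 lists. Of these, 38 were in all 4 lists (42.7%, against 36.2% of 45705 regions), 4 were vehicle-only (4.49% against 2.51%) and 0 dDAVP-only (0.0635% of all regions). Another 9 were called in experiment 1 only (10.1% against 16.0% of all regions) and 0 in experiment 2 only (0.138% of all regions). The vehicle-only count depends on the limits set: it was 7 at a -log10 q of at least 5 or where a call had to cover 50% of a region. It was 0 with lists of equal covered length, 24 without experiment 1 and 17 without experiment 2. Without an experiment, a call in 1 vehicle list and not in its dDAVP list was enough, which is a looser rule. The shares of all regions under these limits were not computed. Of the 38 shared regions, 25 were shorter with dDAVP in both experiments (51.3% of shared regions) and 2 longer (4.78%). Pileup was lower in both for 29 (46.7%) and higher in both for 3 (10.5%). Both dDAVP libraries lay below both vehicle libraries in pileup for 16 of the 38, against 21.3% of shared regions.

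Of the 38 shared regions, 7 were at least 1.5 times shorter with dDAVP in both experiments (5.37% of shared regions) and 0 at least 1.5 times longer (0.242%). They are the Col4a1/Col4a2 start, the second Col4a2 region, the intergenic neighbour in the Col4a1 window, the Lama3 region, the region upstream of Lamb1, the widest region of the Lamc1 window, and the one over Rbbp8nl, all described above. By pileup, 0 regions differed that much in either direction (0.0847% lower and 0.0121% higher). Decreases of that size were thus more frequent in the length that passed the caller's threshold than in the height of what passed. The same held over all shared regions (5.37% against 0.0847%), so this contrast is not particular to these genes.

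Regions at gene starts and regions elsewhere differed in how steady they were. At the starts of any gene, 20 regions lay in the windows and 18 were in all 4 lists (90%). Their median covered length ratio was 0.977 and 0.857. Away from gene starts, 20 of 69 regions were in all 4 lists (29.0%), with median ratios of 0.851 and 0.463. Summed, regions away from starts covered 113790, 136991, 29435 and 79958 bases, ratios of 0.831 and 0.368, with a mean pileup of 0.587, 0.646, 0.553 and 0.613. Over the genome, 83.9% of 8938 start regions and 24.6% of 36767 other regions were in all 4 lists, with median ratios of 0.993 and 0.785 at starts and 0.961 and 0.651 elsewhere.

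Other genes of the basement membrane and of collagen handling showed less covered length more often than more. Of 51 listed genes, 47 had covered windows in all 4 lists, 33 were less covered with dDAVP in both experiments (55.3% of all genes were) and 0 more covered in both. The median log2 ratio was -0.11 and -0.76, against -0.03 and -0.61 over all genes. Among other collagen IV and laminin chains, 6 of 6 covered genes were less covered in both. Windows of neighbouring genes can share peaks, so the genes counted need not be independent of each other. Nor is this count fully separate from the set above, because peaks over a chain of this list also lie in the Lamc1 window. The covered chains include Lamb3 (10756, 15682, 3010 and 11820 bases), a beta chain found with the Lama3 chain in the anchoring laminin. Unlike Lama3, Lamb3 had a peak at the start in every list, as had Col4a5.

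Other structural proteins of the basement membrane were less covered in both experiments for 10 of 13 covered genes, integrins and other receptors for 5 of 10, genes of collagen folding and crosslinking for 6 of 11, and genes of matrix turnover for 6 of 7. The lowest mean ratios belonged to Loxl4, a lysyl oxidase that crosslinks collagen, at 0.696 and 0.118, to Serpinh1, the collagen chaperone, at 0.545 and 0.176, and to Tinagl1, a matrix glycoprotein, at 0.379 and 0.354. Covered length at Serpinh1 was 5495, 10089, 1349 and 7678 bases, and at Tinagl1 it was 4566, 12043, 6505 and 18353 bases. At each, both dDAVP libraries lay below both vehicle libraries, as for 5.14% of all genes. Being named for low ratios favours such a gap. The highest belonged to the windows of Frem1, an extracellular matrix protein (1.37 and 0.942), the gelatinase Mmp9 (1.13 and 0.934) and P4hb, a subunit of collagen prolyl hydroxylase (1.10 and 0.765). Frem1 and Mmp9 had no peak at the gene start in any list, while P4hb had one in all 4. All these ratios are of windows with 70 kb either side, which can take in neighbouring genes.

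The genes outside the windows whose covered length over the 4 lists was most like that of the Col4a1 window were Wnt9a, Prss38 and Efemp1, by distance on a log2 scale among 16067 genes. The Col4a1 window held 19436, 29679, 10070 and 28140 bases. Wnt9a held 18909, 28380, 9836 and 25972, at a distance of 0.142. Prss38, which shares peaks with Wnt9a, lay at 0.206 and Efemp1 at 0.377.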

How the data were processed

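H3K27ac ChIP-seq peak lists from 4 mpkCCD libraries were used, 1 list per library. The submitters' processing notes name BWA, SAMtools and the build mm10. MACS 2.1.1.20160309 called broad peaks in each library against its own input, per the file headers, with q limits of 0.01 and 0.1, 1 tag of 50 bp kept per position, and the larger library scaled to the smaller. Replicates were not pooled. The deposited pileup is a signal of mean tag coverage, given here per 1000000 tags of the library scaled to. The deposited fold enrichment is the authors' ratio to local background. Of 2 deposited columns with lost names, taken from their values as -log10 p-value and -log10 q-value, the second was used to filter. Each list was attached to an input record, and its header names the immunoprecipitated library. Peak names in the experiment 2 lists carry another experiment number.

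Peaks on scaffolds were left out. Peaks overlapping or touching were merged into regions, and a list called a region by 1 bp of overlap. Gene spans and starts came from RefSeq, and both gene ends were used where no start was given. Ratios were taken within an experiment, which the sample titles pair. The titles do not say whether the 2 experiments used separate cultures. Named regions are those at a start, the widest of a window, those called in 1 treatment only, and those differing at least 1.5 times in both experiments. Other regions inside Col4a1, Col4a2, Col4a4, Lamb1 and Lamc1, and the genes Lamb3 and Col4a5, were named after their values were seen. The region at the start of Usp19 was also named after its values were seen. Members, lists and rules were chosen with earlier results of these data known. Code was tested on simulated data (Python 3.11.15, pandas 2.3.3). Read counts were not used here, so no counting interval is given. The values of 1 gene of a list are not reported here, and counts over the list include it.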

Additional observations from a re-analysis of the deposited data

How the results depend on the processing

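Counted in 1 experiment alone, a looser rule, 8 genes were less covered in experiment 1 and 9 in experiment 2. Lower pileup held for 9 and 8. Shares over all genes were not computed for these counts. In experiment 2 even the Lamb2 covered length ratio of 0.953 lay at percentile 96.8 of all genes, so a ratio below 1 was the common case there. With lists of equal covered length the genes less covered in both experiments fell from 8 to 2, and those with lower pileup in both from 8 to 2. The vehicle-only regions fell to 0 and the starts in every list from 8 to 2, and Lamb1 reached a log2 covered length ratio of 0.058. At a -log10 q of at least 5, lower pileup held for 3 genes, 7 regions were vehicle-only and 4 starts were in every list. A gene with no peak in a list has no mean pileup and is not counted there. Counting a region only where peaks cover 50% of it gave 7 vehicle-only regions, and leaving out an experiment 17 to 24, where 1 vehicle list was enough. Shares over all genes or regions were not computed for these counts of starts and vehicle-only regions. Taken over the median of all genes, the Lama5 log2 ratio of covered length was 0.071, and over shared regions the Lamb2 start pileup ratio was 0.025 on a log2 scale. Of 55 alternative values of covered length 44 moved by less than the spread between experiments, 9 by more and 2 reversed. A direction was read only where both experiments shared it. Of 38 values of start pileup the numbers were 34, 3 and 1. Both sets include the values with no replicate block, 17 in all. These lie between the 2 experiments by construction, so they could not move by more than the spread. That spread is the standard deviation of 2 values and was wide at some genes, 1.31 at Lama3 for covered length, so a small move is weak evidence of stability. A further 8 values of covered length and 10 of start pileup are missing from these counts, because a cut left a list without peaks there. The start region shared by the genes of a pair is counted for each gene. Lamb2, whose experiments differed in direction, changed sign in 6 of 7 alternative values of covered length, which reached 0.32. With no replicate block, ignoring the pairing by experiment, the Col4a1 log2 ratio was -0.97 in place of -1.05. The cause of these changes was not tested. Peak lists hold only what passed a threshold, so weak acetylation below it is not seen.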
